A study of Homo sapiens with 4 samples.

Results

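The genes described are those of the estrogen receptor program and of luminal identity in BT-474 breast cancer cells, with and without overexpression of neuropilin-1 (NRP-1). The 36 members were chosen by gene symbol, with earlier results of these data known. They were matched to the NCBI Gene identifiers of the count tables, which list 18882 genes in all. Of the 36, 35 had a row, 34 passed the filter on low counts and entered the test, and TFAP2B was not analysed here. They fall into 12 luminal transcription factors, 19 estrogen-induced targets and 5 luminal markers.

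BT-474 is an established line from a human breast tumor that the labels call luminal B-like, and all libraries come from cells grown in RPMI-1640 with fetal bovine serum. The control group is wild-type BT-474 cells that carry no plasmid, in 2 libraries numbered replicates 1 and 2. The BT-474 NRP-1 group, in 2 libraries numbered replicates 2 and 3, carries NRP-1 cDNA on a pPTuner IRES2 plasmid and was isolated as Geneticin-resistant colonies, so transfection, selection and clonal isolation are shared by these libraries and absent from the controls. RNA-Seq libraries of cells with the empty plasmid were not analysed here, and nothing in the sources says whether the replicates were separate cultures or clones, so the p-values measure only the spread between these 4 libraries.

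The estrogen receptor alpha, encoded by ESR1, is a nuclear receptor that binds estradiol and then estrogen response elements in DNA. In luminal breast cells it works with the pioneer factor FOXA1 and with GATA3, which help it reach its binding sites, and it induces genes such as the progesterone receptor PGR, the trefoil peptide TFF1 and GREB1. AP-2 factors, encoded by the TFAP2 genes, and ETS factors such as ELF3 and SPDEF are further regulators of the luminal epithelium.

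The libraries held between 8243595 and 8448926 expected reads, and TMM factors lay between 0.986 and 1.014. NRP1 itself was at 7, 8, 103 and 62 reads in control replicates 1 and 2 and NRP-1 replicates 2 and 3, the order used for all reads below. The keratins of luminal epithelium were abundant in every library, KRT8 for example at 15611, 15449, 20419 and 18735 reads. ERBB2, the amplified receptor of this line, had 46249, 50435, 59100 and 47135 reads. The basal keratin KRT5 had 0, 0, 0 and 1 reads, and KRT14 was not analysed here. Other basal markers, among them TP63, KRT6B and ID4, did have reads and are given below. By KRT8, ERBB2 and KRT5 the 4 libraries were luminal, as labelled. In bulk RNA, fewer cells that express a gene and less RNA per cell cannot be told apart.

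By the quasi-likelihood test of edgeR, whose p-values were adjusted over all genes by the Benjamini-Hochberg method, 0 of the 34 tested members passed an adjusted p of 0.05, a threshold that 1.09% of the 14298 genes tested passed. At an unadjusted p under 0.05 the same test counted 11 of the 34, where 22.9% of all genes did. DESeq2 called 5 of the 33 members to which it gave an adjusted p, against 6.36% of all genes. GATA3, TBX3, AGR2 and RET were called higher in BT-474 NRP-1 cells, beside 2.68% of all genes, and TFF3 was called lower, beside 3.68%. limma on log2(FPKM + 1) and on log2(FPKM + 0.1) called 0, and the share of all genes in these 2 fits was not counted. The count depended on which library was left out, in fits where a lone library is assumed to vary like the other group. With NRP-1 replicate 2 left out edgeR called 16 of 34 members, beside 36.8% of all genes, with NRP-1 replicate 3 left out 18 of 35, beside 28.2%, and with either control left out 0 of 35 members and 0 of all genes. By CPM, the groups did not overlap for 24 of the 34 members, beside 56.2% of all genes, and by FPKM, a length-corrected scale, for 22, beside 56.6%. The members are described library by library. Each log2 fold change is NRP-1 over control, from edgeR, with its standard error (SE).

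**Figure D1:**
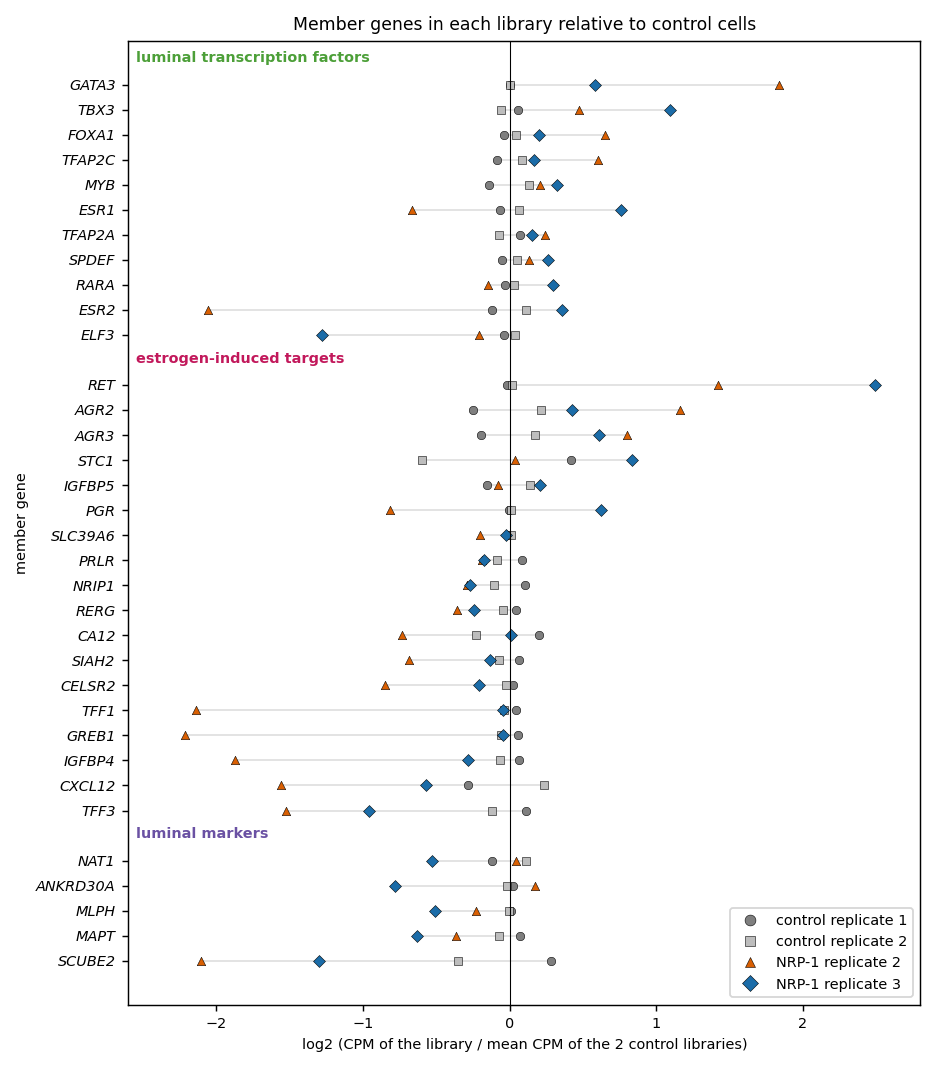
Log2 ratio of each library's counts scaled to library size (CPM, x axis) to the mean of the 2 control libraries, for the 34 tested member genes (y axis), in their 3 groups and ordered by fitted log2 fold change. Each symbol is 1 library, and the gray line spans the 4 libraries. The controls lie close together for most genes, and GREB1, TFF1 and IGFBP4 are far to the left in NRP-1 replicate 2 while NRP-1 replicate 3 is near the controls.

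Before the changes, the levels show what the cells expressed. In FPKM, a scale of fragments corrected for transcript length and library size, the secreted trefoil peptides were the highest members in control cells, TFF3 at a mean of 1309.4 and TFF1 at 1234.4. By mean FPKM over the 4 libraries TFF1 ranked 34 and TFF3 39 among the 14298 tested genes. IGFBP5, a secreted binding protein of insulin-like growth factors, followed at 829.7 FPKM in control cells, and AGR2, a protein disulfide isomerase of the endoplasmic reticulum, at 328.3. The transcription factors spanned from 216.3 FPKM for SPDEF, 129.9 for ELF3 and 119.4 for FOXA1 down to 7.78 for ESR1 and 7.25 for GATA3. ESR1 ranked 7455 among the tested genes. ESR2, the estrogen receptor beta, was at 0.575 FPKM. SCUBE2, STC1 and PDZK1 were also under 1 FPKM, at 0.445, 0.23 and 0.15 in control cells. The order of the trefoil genes was not stable, with TFF3 at 1208.06 and TFF1 at 1202.68 FPKM in control replicate 2, and 689.1 and 1223.88 in NRP-1 replicate 3.

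**Figure D2:**
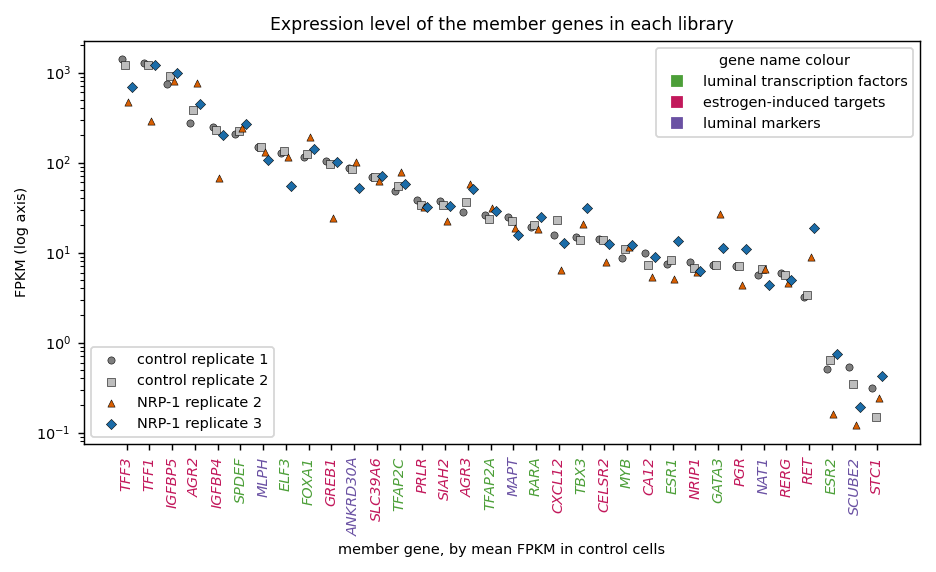
FPKM (y axis, log scale) of the 34 tested member genes in each of the 4 libraries, ordered by the mean in control cells (x axis). Each symbol is 1 library, and the color of a gene name marks its group. The trefoil peptides are highest, ESR2, SCUBE2 and STC1 lie under 1 FPKM, and the NRP-1 libraries stand above the controls in, among others, GATA3 and RET.

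Among the luminal transcription factors, GATA3, FOXA1, MYB, SPDEF, TFAP2A, TFAP2C and TBX3 were higher in both NRP-1 libraries than in both control libraries. These are 7 of the 11 tested, beside 27.9% of all genes tested. ELF3 alone was lower in both, and 28.3% of all genes were. Taken alone, NRP-1 replicate 2 stood above both controls for 7 of the 11 factors, beside 41.7% of all genes, and NRP-1 replicate 3 for 10, beside 43.5%. The median log2 fold change of the group was 0.22, beside 0.02 over all genes, with 9 factors at positive and 2 at negative values. edgeR called 0 of the 11 at an adjusted p under 0.05 and 3 at an unadjusted p under 0.05, beside 22.9% of all genes, and DESeq2 called 2, both higher, beside 2.68%.

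ESR1 (gene identifier 2099) had 395, 437, 273 and 735 reads. The lowest library was NRP-1 replicate 2 and the highest NRP-1 replicate 3, with both controls between them, so the groups had no common direction. The fitted log2 fold change was 0.22 (SE 0.43, adjusted p = 0.80, edgeR). It was -0.66 with NRP-1 replicate 3 left out and 0.75 with replicate 2 left out, in fits whose spread comes from the control pair alone. The ratio of NRP-1 replicate 3 to replicate 2 was 2.69 (95% exact interval 2.34 to 3.10, counting error only). SYNE1, which overlaps ESR1, had a mean of 53.5 reads per library against 460.0 for ESR1, and whether strand was used in counting is not given in the sources used here. ESR2 had 11, 13, 3 and 16 reads and followed the same order of libraries at counts too low for a firm statement. RARA, the retinoic acid receptor alpha and itself a gene that estrogen induces, had 546, 576, 526 and 718 reads, again lowest in NRP-1 replicate 2 and highest in NRP-1 replicate 3 (log2 fold change 0.09, SE 0.18, adjusted p = 0.801, edgeR).

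GATA3 showed the largest fitted difference of the factors. Its reads (gene identifier 2625) were 184, 186, 688 and 289, so that the control libraries were nearly equal and both NRP-1 libraries were above them, NRP-1 replicate 2 by 3.57-fold and NRP-1 replicate 3 by 1.5-fold in CPM. The log2 fold change was 1.34 (SE 0.40, adjusted p = 0.126, edgeR, and 0.00859 by DESeq2). It was 0.57 with NRP-1 replicate 2 left out and 1.84 with replicate 3 left out. GATA3 and ESR1 thus differed in opposite directions between the 2 NRP-1 libraries, with a ratio of NRP-1 replicate 3 to replicate 2 of 0.419 for GATA3 (95% exact interval 0.364 to 0.482, counting error only).

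TBX3, a T-box transcriptional repressor that acts in mammary development, had 596, 557, 834 and 1282 reads. Both NRP-1 libraries were above both controls, and here NRP-1 replicate 3 was the higher (log2 fold change 0.82, SE 0.22, adjusted p = 0.107, edgeR, and 0.0225 by DESeq2). The value was 0.48 with NRP-1 replicate 3 left out and 1.08 with replicate 2 left out. FOXA1 had 3258, 3493, 5507 and 4043 reads, with a log2 fold change of 0.44 (SE 0.18, adjusted p = 0.209, edgeR). TFAP2C, the AP-2 gamma factor, was alike in shape, with 1146, 1309, 1937 and 1432 reads and a log2 fold change of 0.40 (SE 0.18, adjusted p = 0.248, edgeR). In both genes NRP-1 replicate 2 was the highest library and NRP-1 replicate 3 was little above the controls. TFAP2A, the AP-2 alpha factor, had 753, 689, 887 and 834 reads, SPDEF had 3275, 3555, 3893 and 4260, and the proto-oncogene MYB had 244, 299, 326 and 354. The log2 fold changes of these 3 genes were 0.20, 0.20 and 0.27, and all 4 libraries of each lay within 1.5-fold of one another.

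ELF3, an epithelial ETS factor, was the factor that was lower in both NRP-1 libraries. It had 3298, 3524, 3070 and 1465 reads, and NRP-1 replicate 3 alone was clearly low, 2.43-fold below the control mean in CPM (log2 fold change -0.65, SE 0.33, adjusted p = 0.299, edgeR). The value was -0.21 with NRP-1 replicate 3 left out and -1.29 with replicate 2 left out.

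Among the estrogen-induced targets most values were negative. PRLR, TFF1, TFF3, SLC39A6, IGFBP4, CXCL12, NRIP1, RERG, SIAH2 and CELSR2 were lower in both NRP-1 libraries than in both controls, which is 10 of the 18 tested, beside 28.3% of all genes. AGR2, AGR3 and RET were the 3 that were higher in both, beside 27.9%. By FPKM TFF1 and SLC39A6 left the first count. Taken alone, NRP-1 replicate 2 lay below both controls for 13 of the 18, beside 42.1% of all genes, and NRP-1 replicate 3 for 10, beside 42.8%. The median log2 fold change of the 18 was -0.29, with 6 positive and 12 negative values. edgeR called 0 of them at an adjusted p under 0.05 and 5 at an unadjusted p under 0.05, beside 22.9% of all genes, and DESeq2 called 3 of 17, beside 6.36%. NRP-1 replicate 2 held the lowest CPM of the 4 libraries in 13 of the 18 targets, where 25.1% of all genes had their lowest value there, and NRP-1 replicate 3 held the lowest in 0 of the 18, where 31.5% of all genes did. Against the control mean, the median log2 ratio of the targets was -0.53 in NRP-1 replicate 2 and -0.05 in NRP-1 replicate 3, beside -0.01 and 0.00 over all genes.

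GREB1, an early estrogen target that also binds the receptor (gene identifier 9687), had 6866, 6419, 1489 and 6701 reads. TFF1, the classical marker of estrogen response (gene identifier 7031), had 5011, 4795, 1159 and 4959 reads. In both genes NRP-1 replicate 2 was low on its own, 4.65-fold and 4.41-fold below the control mean in CPM, while NRP-1 replicate 3 was within 1.03-fold of it. The log2 fold change of GREB1 was -0.76 (SE 0.62, adjusted p = 0.508, edgeR) and became -2.21 with NRP-1 replicate 3 left out and -0.06 with replicate 2 left out. That of TFF1 was -0.74 (SE 0.60, adjusted p = 0.504, edgeR), and -2.14 and -0.05 in the same fits. The count of TFF1 among genes lower in both NRP-1 libraries rests on 581.7 CPM in NRP-1 replicate 3 against 582.4 in control replicate 2, a gap that counting error covers.

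IGFBP4, a secreted inhibitor of insulin-like growth factors, had 4632, 4298, 1267 and 3822 reads (log2 fold change -0.87, SE 0.47, adjusted p = 0.325, edgeR), and NRP-1 replicate 2 was again far below the rest. The value was -1.87 with NRP-1 replicate 3 left out and -0.29 with replicate 2 left out. PGR, the progesterone receptor, had 702, 717, 419 and 1138 reads, with both controls between a low NRP-1 replicate 2 and a high NRP-1 replicate 3 (log2 fold change 0.07, SE 0.42, adjusted p = 0.938, edgeR). This is the order of libraries seen in ESR1, and the value was -0.82 with NRP-1 replicate 3 left out and 0.61 with replicate 2 left out. The ratio of NRP-1 replicate 3 to replicate 2 was 4.49 for GREB1 (95% exact interval 4.25 to 4.76), 4.27 for TFF1 (4.01 to 4.56), 3.01 for IGFBP4 (2.83 to 3.21) and 2.71 for PGR (2.42 to 3.04), all for counting error only. Together with RET these are the 5 of 18 targets over 2-fold higher in NRP-1 replicate 3 than in replicate 2, a rule that 4.49% of all genes met, and 0 of 18 were over 2-fold lower, where 4.5% of all genes were.

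**Figure D3:**
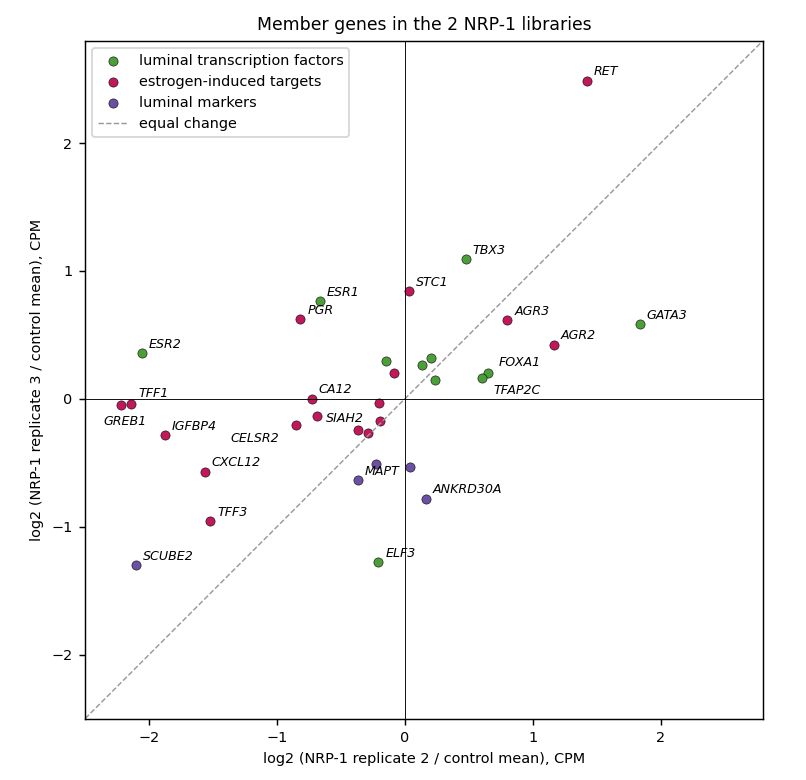
Log2 ratio of CPM to the control mean in NRP-1 replicate 2 (x axis) and in NRP-1 replicate 3 (y axis), with 1 point per tested member gene, colored by group, and a dashed line of equal change. GREB1, TFF1, IGFBP4, PGR, ESR1 and ESR2 lie above the line on the left, GATA3, ELF3 and ANKRD30A lie below it, and TFF3 and RET are displaced from 0 in both libraries.

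TFF3 lies close to TFF1 on chromosome 21, with 1 protein-coding gene between them in the RefSeq order. TFF3 (gene identifier 7033) had 12042, 10388, 4061 and 6022 reads, and both NRP-1 libraries were well below both controls, by 2.88-fold and 1.94-fold in CPM. The log2 fold change was -1.21 (SE 0.22, adjusted p = 0.0622, edgeR, and 6.89e-06 by DESeq2), with -1.52 when NRP-1 replicate 3 was left out and -0.97 when replicate 2 was. CXCL12, the chemokine ligand of CXCR4, had 341, 495, 147 and 293 reads, also below both controls in both NRP-1 libraries (log2 fold change -0.98, SE 0.35, adjusted p = 0.173, edgeR). For CXCL12 the value was -1.56 with NRP-1 replicate 3 left out and -0.58 with replicate 2 left out. GREB1, TFF1, TFF3, IGFBP4 and CXCL12 are the 5 of 18 targets over 2-fold below the control mean in NRP-1 replicate 2, where 5.71% of all genes were. In the same library 2 of the 18, AGR2 and RET, were over 2-fold above it, beside 2.9% of all genes. In NRP-1 replicate 3, 0 of the 18 were over 2-fold below the control mean, beside 7.72% of all genes.

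Most of the smaller differences were negative too. CELSR2, a cadherin of planar cell polarity, had 1241, 1214, 708 and 1109 reads, and SIAH2, a ubiquitin ligase, had 805, 742, 501 and 733. Their log2 fold changes were -0.49 (SE 0.22, adjusted p = 0.247, edgeR) and -0.39 (SE 0.20, adjusted p = 0.309, edgeR), and in both the low library was NRP-1 replicate 2. The corepressor gene NRIP1 had 491, 430, 392 and 398 reads, the Ras-like GTPase gene RERG 114, 109, 90 and 98, and the prolactin receptor gene PRLR 3600, 3233, 3118 and 3154. Here the NRP-1 libraries lay close to each other, and the log2 fold changes were -0.28, -0.31 and -0.18. The zinc transporter gene SLC39A6 had 2013, 2075, 1847 and 2089 reads (log2 fold change -0.11). Its place among genes lower in both NRP-1 libraries rests on 245.0 CPM in NRP-1 replicate 3 against 247.7 in control replicate 1, a gap that counting error covers, and by FPKM NRP-1 replicate 3 was above both controls, at 70.66 against 69.43 and 68.94. The carbonic anhydrase gene CA12 had 327, 246, 180 and 300 (log2 fold change -0.32). IGFBP5 had 39267, 48708, 43192 and 52899 reads, so its libraries overlapped between the groups (log2 fold change 0.07). STC1, a secreted glycoprotein gene, had 10, 5, 8 and 14 reads, and PDZK1, a scaffold gene that was not tested, had 6, 0, 14 and 6. No direction can be read from these low counts.

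RET, a receptor tyrosine kinase for ligands of the GDNF family (gene identifier 5979), had the largest positive value of the targets. It had 126, 131, 358 and 752 reads, or a mean of 15.7 ± 0.290 CPM for the controls (SD, n = 2) and 65.1 ± 32.6 CPM for the NRP-1 libraries (SD, n = 2). Both NRP-1 libraries were far above the controls, by 2.68-fold and 5.61-fold, and the log2 fold change was 2.05 (SE 0.36, adjusted p = 0.0606, edgeR, and 8.48e-07 by DESeq2). It was 1.42 with NRP-1 replicate 3 left out and 2.48 with replicate 2 left out. RET was 1 of 18 targets over 2-fold above the control mean in NRP-1 replicate 3, beside 4.44% of all genes. AGR2 and AGR3 are adjacent genes of the disulfide isomerase family on chromosome 7, with 0 protein-coding genes between them. AGR2 had 2212, 3096, 6178 and 3704 reads (log2 fold change 0.84, SE 0.28, adjusted p = 0.158, edgeR, and 0.0292 by DESeq2), and the value was 1.16 with NRP-1 replicate 3 left out and 0.41 with replicate 2 left out. AGR3 had 173, 226, 361 and 317 reads (log2 fold change 0.71, SE 0.19, adjusted p = 0.107, edgeR). In both genes the NRP-1 libraries stood above both controls, and NRP-1 replicate 2 was the highest.

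The 5 luminal markers all had negative fitted values, with a median log2 fold change of -0.36, and edgeR called 0 of them at an adjusted p under 0.05 and 3 at an unadjusted p under 0.05, beside 22.9% of all genes, while DESeq2 called 0. MAPT, the gene of the microtubule protein tau, had 1188, 1092, 919 and 766 reads (log2 fold change -0.50, SE 0.14, adjusted p = 0.120, edgeR). MLPH, melanophilin, a linker in vesicle transport, had 4554, 4573, 4053 and 3345 reads (log2 fold change -0.36, SE 0.14, adjusted p = 0.202, edgeR). SCUBE2, a secreted protein gene, had 20, 13, 4 and 7 reads, too few for a firm direction (log2 fold change -1.62, SE 0.54, adjusted p = 0.158, edgeR). In these 3 genes both NRP-1 libraries lay below both controls, as in 28.3% of all genes. ANKRD30A, the breast differentiation antigen NY-BR-1, had 3213, 3165, 3734 and 1935 reads, and NAT1, an arylamine acetyltransferase gene, had 89, 105, 104 and 70. In 4 of the 5 markers, all but SCUBE2, NRP-1 replicate 3 was the lowest of the 4 libraries, beside 31.5% of all genes.

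**Figure D4:**
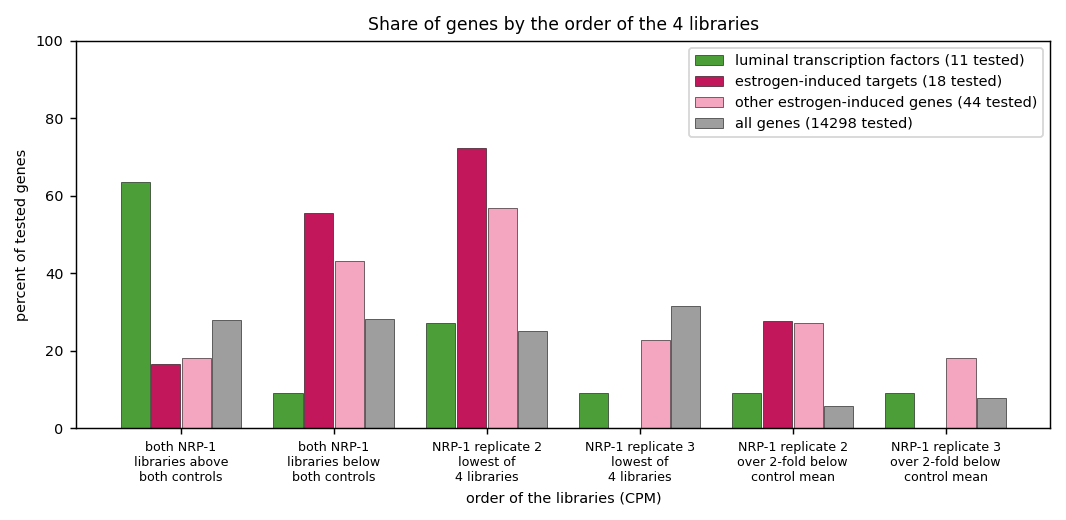
Percent of tested genes (y axis) that met each rule on the order of the 4 libraries by CPM (x axis), for the luminal transcription factors, the estrogen-induced targets, a second list of estrogen-induced genes and all 14298 genes. Bars are shares of genes with no error bar, and the lists were chosen with earlier results of these data known. NRP-1 replicate 2 was the lowest library for 72.2% of the targets and 56.8% of the second list, beside 25.1% of all genes, and NRP-1 replicate 3 for 0% and 22.7%, beside 31.5%.

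A second list of 48 estrogen-induced genes, of which 44 were tested, had a median log2 fold change of -0.22, with 16 positive and 28 negative values. Like the members, this list was chosen with earlier results of these data known, so it is no independent check of them. edgeR called 2 of the 44 lower, beside 0.678% of all genes, and 0 higher, beside 0.413%. SERPINA1, the gene of alpha-1 antitrypsin, fell from 3854 and 3059 reads to 1298 and 1150 (log2 fold change -1.56, SE 0.16, adjusted p = 0.0365, edgeR). CTSD, the lysosomal protease cathepsin D, fell from 4167 and 3752 reads to 2244 and 2219 (log2 fold change -0.89, SE 0.13, adjusted p = 0.0472, edgeR). Unlike GREB1 and TFF1, both of these were low in both NRP-1 libraries. RAB31, with 128, 127, 28 and 47 reads, and DEPTOR, an inhibitor of mTOR with 1159, 1038, 299 and 501 reads, were next (log2 fold changes -1.82 and -1.52, adjusted p = 0.0557 and 0.0559, edgeR). DESeq2 called 10 of the 44, beside 6.36% of all genes, with 2 higher, beside 2.68%, and 8 lower, beside 3.68%. Both NRP-1 libraries lay below both controls for 19 of the 44, beside 28.3% of all genes, and above both for 8, beside 27.9%. NRP-1 replicate 2 was the lowest library for 25 of the 44, beside 25.1% of all genes, and 12 were over 2-fold below the control mean there, beside 5.71%, with 0 over 2-fold above it, beside 2.9%. In NRP-1 replicate 3, 8 of the 44 were over 2-fold below the control mean, beside 7.72% of all genes, and 1 was over 2-fold above it, beside 4.44%. That library was below both controls for 23 of the 44, beside 42.8%, and NRP-1 replicate 2 for 31, beside 42.1%.

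The cofactors with which the receptor acts had mostly positive values. Of 27 genes of coactivators, corepressors and related receptors, 26 were tested, with 21 positive and 5 negative values. The median log2 fold change was 0.18, beside 0.02 over all genes, whose share of positive values was not counted. Both NRP-1 libraries lay above both controls for 12 of the 26, beside 27.9% of all genes, and below both for 1, beside 28.3%. That 1 was PHB2, outside the rule for named genes (log2 fold change -0.54, SE 0.14, adjusted p = 0.107, edgeR). edgeR called 0 of the 26 at an adjusted p under 0.05 and 7 at an unadjusted p under 0.05, beside 22.9% of all genes, and DESeq2 called 4, all higher, beside 2.68%. The lowest p-values were those of TLE3, a corepressor with 741, 836, 1336 and 1287 reads (log2 fold change 0.68, adjusted p = 0.064, edgeR), and KMT2D, a histone methyltransferase (0.60, adjusted p = 0.068, edgeR). NCOA1, the steroid receptor coactivator gene, followed with 132, 139, 300 and 236 reads (log2 fold change 0.92, adjusted p = 0.0746, edgeR), and the acetyltransferase gene EP300 with a log2 fold change of 0.55 (SE 0.12, adjusted p = 0.0792, edgeR).

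Markers of the epithelium and of other cell states were counted beside these genes. Of 12 luminal keratins and epithelial genes, 5 had positive and 7 negative values at a median log2 fold change of -0.11, with 0 called by edgeR, 3 at an unadjusted p under 0.05, beside 22.9% of all genes, and 1, MUC1, called lower by DESeq2, beside 3.68%. MUC1, the apical mucin, had 1577, 1666, 732 and 363 reads (log2 fold change -1.62, adjusted p = 0.068, edgeR). KRT7, KRT8 and EPCAM had log2 fold changes of 0.34, 0.27 and -0.31. Of 19 basal and myoepithelial markers, 17 had a row and 10 were tested, at a median log2 fold change of -0.53, and edgeR called 2, both lower, beside 0.678% of all genes. KRT6B fell from 68 and 80 reads to 2 and 8 (log2 fold change -3.91, adjusted p = 0.0442, edgeR), and it is a gene that the study selected on these libraries, whose reads can be shared with close copies. ID4, an inhibitor of helix-loop-helix factors, fell from 249 and 199 reads to 78 and 75 (log2 fold change -1.61, adjusted p = 0.044, edgeR). MYLK and FOXC1 had log2 fold changes of -0.82 and -1.80, and the basal factor TP63 had 12, 43, 40 and 74 reads.

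Of 7 luminal progenitor markers 5 were tested, at a median log2 fold change of 0.18, with 0 called by edgeR, 1 at an unadjusted p under 0.05, beside 22.9% of all genes, and 0 called by DESeq2. PROM1, ALDH1A3, ELF5 and EHF had log2 fold changes of -0.95, 0.57, -0.26 and 0.18. Of 12 markers of stromal, endothelial and immune cells, 9 had a row and 5 were tested, at a median of 0.00, and edgeR called 1 lower, beside 0.678% of all genes. The lysosomal protein gene CD68 fell from 320 and 281 reads to 107 and 89 (log2 fold change -1.67, adjusted p = 0.0423, edgeR). VWF had 9, 20, 47 and 49 reads, COL1A1 had 1739, 1740, 1513 and 1357, PECAM1 had 36, 53, 52 and 47, COL1A2 had 1, 0, 0 and 1, and the leukocyte gene PTPRC had 15, 10, 9 and 17. The calls of SERPINA1, CTSD, KRT6B, ID4 and CD68 did not hold with either control library left out, where edgeR called 0 genes in all. The part of these markers in the values of the members was not tested.

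To show the DNA in front of 4 members with wide differences between libraries, windows of 250 bases before the start, the first listed for each gene, were read from RefSeq on GRCh38.p14. GREB1, TFF1 and TFF3 had no promoter entry in the set used, so no window shown or counted below is theirs. The windows of IGFBP4 (chr17:40443200-40443449, plus strand) and PGR (chr11:101129078-101129327, minus strand) belong to genes that were low in NRP-1 replicate 2, that of CXCL12 (chr10:44385098-44385347, minus strand) to a gene lower in both NRP-1 libraries, and that of RET (chr10:43076819-43077068, plus strand) to the target with the largest positive value. They are printed 5′ to 3′ on the strand of the gene. Capitals mark the half-site of an estrogen response element (GGTCA, either strand, thus also TGACC), the AP-2 motif (GCCNNNGGC, either strand) and the TATA box (TATAAA, gene strand).
IGFBP4: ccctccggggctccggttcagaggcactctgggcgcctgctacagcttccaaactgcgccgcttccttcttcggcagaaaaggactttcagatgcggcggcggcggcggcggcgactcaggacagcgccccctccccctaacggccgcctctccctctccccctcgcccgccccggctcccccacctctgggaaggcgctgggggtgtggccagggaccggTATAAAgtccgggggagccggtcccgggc
PGR: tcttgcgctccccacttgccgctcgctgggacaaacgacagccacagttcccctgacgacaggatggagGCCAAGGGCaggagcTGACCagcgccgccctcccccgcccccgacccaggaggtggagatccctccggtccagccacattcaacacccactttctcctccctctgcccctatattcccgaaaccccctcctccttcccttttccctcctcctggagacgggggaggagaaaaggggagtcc
CXCL12: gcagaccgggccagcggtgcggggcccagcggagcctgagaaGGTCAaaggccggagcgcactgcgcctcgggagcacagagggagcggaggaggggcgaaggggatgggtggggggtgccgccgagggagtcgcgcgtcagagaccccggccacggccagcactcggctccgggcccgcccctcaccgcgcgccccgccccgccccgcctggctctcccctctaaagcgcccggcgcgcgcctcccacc
RET: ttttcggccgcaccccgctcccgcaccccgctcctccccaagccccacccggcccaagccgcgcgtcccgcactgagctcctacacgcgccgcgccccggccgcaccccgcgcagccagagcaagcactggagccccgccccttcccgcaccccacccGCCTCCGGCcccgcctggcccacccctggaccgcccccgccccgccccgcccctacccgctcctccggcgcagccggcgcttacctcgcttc

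IGFBP4 held the TATA letters 29 bases before its start, and PGR held TGACC 166 bases and GCCAAGGGC 181 bases before its start. CXCL12 held GGTCA 208 bases before its start, and RET held GCCTCCGGC 92 bases before its start. The half-site was in 17 of 51 windows of the 26 member genes that matched the table, and in 32.6% of 35116 windows of all genes. The AP-2 motif was in 10 of the 51, beside 19.8% of all windows, the TATA letters in 4, beside 6.8%, and the forkhead motif TGTTTAC, either strand, in 1, that of MYB, beside 2.98%. The full element GGTCANNNTGACC, whose letters include the half-site, was in 0 of the 51 windows and in 0.0399% of all windows. These matches describe letters in a window and not binding.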

How the data were processed

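RNA of 2 control and 2 BT-474 NRP-1 libraries was analysed. The authors aligned clean reads and deposited, for each library and gene, an expected count, without normalization and fractional in 32.8% of values above 0, and an FPKM value. Per the labels, the submitters' processing notes name bcl2fastq 2.16, HISAT2 2.0.1, Bowtie2 2.2.5 and RSEM, and the builds GRCh38 and hg19 without their roles. A deposited table of the authors' comparison, with group means, log2 ratios and a probability, was not used. Strand use in counting is not given in the sources used here.

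The main test, on rounded expected counts, was edgeR 4.0.16 under R 4.3.3 (filterByExpr, TMM, glmQLFit and glmQLFTest with a group term), with p-values adjusted over all 14298 genes tested. The SE is the absolute log2 fold change divided by the square root of F. Alternatives were DESeq2 1.42.0, limma 3.58.1 with pseudocounts of 1 or 0.1 FPKM before log2 at a mean FPKM of at least 0.5, no TMM, no filter, a stricter threshold and omission of each library. Counts of libraries on 1 side used CPM with TMM. The smallest p of an exact two-sided permutation test of 1 gene in this design is 0.333. Python 3.11.15, scipy 1.17.1 and matplotlib 3.10.9 served for intervals and figures. edgeR and the other tests were checked on counts simulated with the same spread for all genes in both groups. That check does not cover a wider spread in the NRP-1 pair than in the controls.

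Of the gene identifiers, 99.4% matched a symbol of RefSeq on GRCh38.p14, used for names, gene order and promoters only. The members and the 6 further lists (receptor cofactors, other estrogen-induced genes, luminal keratins and epithelial identity, basal and myoepithelial, luminal progenitor, and stromal, endothelial and immune markers) were chosen with earlier results of these data known. Named genes are all members, NRP1, cell line markers and, of each further list, the genes called by edgeR and up to 4 of lowest p.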

Additional observations from a re-analysis of the deposited data

How the results depend on the processing

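In edgeR 0 of the 34 tested members were called, beside 1.09% of all genes. The count was also 0 with library sizes without TMM, without the filter on low counts and with both limma fits. The shares of all genes in those fits were not counted. At an adjusted p of at most 0.001 with a log2 fold change of at least 2, 0 members and 0 of all 14298 genes passed. DESeq2 called 5 members, 2 luminal transcription factors and 3 estrogen-induced targets. With 1 library left out, a lone library is assumed to vary like the other group, and the counts ran from 0 to 18 for all members, from 0 to 6 for the factors and from 0 to 12 for the targets. They were 0 without either control library. Without NRP-1 replicate 2, edgeR called 16 members, beside 36.8% of all genes, and without NRP-1 replicate 3 it called 18, beside 28.2%, since the spread then comes from the close control pair. The median log2 fold change ran from 0.15 to 0.29 for the factors, from -0.37 to -0.06 for the targets and from -0.20 to -0.02 for all members. Over the other alternatives, 159 member values kept direction and side of the threshold, 5 passed it and 2 changed sign, both PGR, at -0.03 in limma on log2(FPKM + 1) and -0.05 on log2(FPKM + 0.1). On omission of a library 96 kept both, and the rest passed the threshold, changed sign or did both. ESR1 at -0.66 and PGR at -0.82 were among the values that changed sign without NRP-1 replicate 3. In all, 8 values changed sign. The log2 fold change then ran from -0.66 to 0.75 for ESR1, from -2.01 to 0.34 for ESR2, from -0.15 to 0.29 for RARA, from -0.82 to 0.61 for PGR, from -0.08 to 0.22 for IGFBP5, from -0.54 to 0.04 for NAT1 and from -0.79 to 0.17 for ANKRD30A. The number of members whose groups did not overlap was 24 by CPM, beside 56.2% of all genes, and 22 by FPKM, beside 56.6%. In a count added after seeing the data, NRP-1 replicate 3 alone was above both controls for 10 of the 11 factors and below both for 10 of the 18 targets, and NRP-1 replicate 2 alone for 7 and 13. Over all genes, the shares above and below both controls were 43.5% and 42.8% in NRP-1 replicate 3, and 41.7% and 42.1% in NRP-1 replicate 2. No paired analysis was possible because the groups share only replicate number 2. The depth limits ESR2, SCUBE2, STC1 and PDZK1, with at most 20 reads in a library. Fractional counts, from reads shared between genes, occurred in 7 members.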

Other observations

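MYC, an estrogen-induced gene of the second list and outside the rule for named genes, was chosen after its values were seen. It had 1113, 1116, 231 and 553 reads (log2 fold change -1.57, SE 0.38, adjusted p = 0.0893, edgeR), so that, as in TFF3, the NRP-1 libraries were the lower ones and NRP-1 replicate 2 the lowest. The value was -2.33 with NRP-1 replicate 3 left out and -1.08 with replicate 2 left out. CCND1, the cyclin D1 gene, and XBP1, both of the same list and also chosen after their values were seen, had log2 fold changes of 0.37 (SE 0.20, adjusted p = 0.33, edgeR) and 0.01 (SE 0.14, adjusted p = 0.983, edgeR).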
